A study of Mus musculus with 6 samples.

Results

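The 10 genes described here are immediate early transcription factors and their partners: Egr1, Egr2 and Egr3, the Egr corepressors Nab1 and Nab2, and the AP-1 subunits Fos, Fosl2, Jun, Junb and Jund. They were taken by name from the array design, as every non-control probe assigned to one of these genes, which gave 10 of the 34964 gene names on the array, 12 of 55681 probes and 21 spots per array. They were chosen with their own difference between the groups in view, so that difference is given as a description. Calls from a fit over all genes are listed for them, but nothing is read from those calls. The 6 samples are all of G1E-ER-GATA-1, a single mouse erythroid progenitor line that has no GATA-1 of its own and carries an inducible fusion of GATA-1 with the oestrogen receptor ligand-binding domain. One group received an siRNA against Mi2β, the chromatin-remodelling ATPase encoded by Chd4 (3 samples), and the control group a non-targeting siRNA (3 samples), in both groups by nucleofection at 0 h and 24 h. All 6 samples were treated with β-estradiol, added at 24 h and left on for 24 h, until harvest at 48 h. Uninduced cells are thus no part of the comparison. All 6 samples were grown with erythropoietin and Kit ligand. Of the 10 genes, 7 had a probe detected on at least 3 of the 6 arrays and are among the 22133 genes of the fit, while Egr2, Egr3 and Fos did not pass that filter.

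Immediate early genes are transcribed within minutes of a growth factor or stress signal, without new protein synthesis, because Ras and MAP kinase signalling acts on factors already bound at their promoters. Egr proteins are zinc-finger factors that bind GC-rich sites, and Nab1 and Nab2 are corepressors that dock on Egr1 and Egr2. Nab2 also binds Chd4, and the Nab2 gene is itself a known Egr target. Jun and Fos family proteins pair through leucine zippers into AP-1, in which Jun is a strong activator and Junb and Jund are weaker or context-dependent. In blood formation, Egr factors and Nab2 are best known for favouring the macrophage over the neutrophil fate and for restraining stem cell division.

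The sequences below are the 250 bases upstream of the start site of 4 members. These members are both corepressors and 2 Jun family genes, Junb and Jun, that were called on opposite sides of 0. The sequences are from RefSeq on GRCm38.p6, on the gene's own strand and written 5′ to 3′, with matches to the searched motifs in capitals.
Nab1: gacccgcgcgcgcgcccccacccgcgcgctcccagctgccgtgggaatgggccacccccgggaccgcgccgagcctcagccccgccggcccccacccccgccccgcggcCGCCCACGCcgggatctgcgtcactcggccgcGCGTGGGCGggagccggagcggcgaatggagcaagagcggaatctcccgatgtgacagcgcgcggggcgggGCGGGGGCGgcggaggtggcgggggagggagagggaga
Nab2: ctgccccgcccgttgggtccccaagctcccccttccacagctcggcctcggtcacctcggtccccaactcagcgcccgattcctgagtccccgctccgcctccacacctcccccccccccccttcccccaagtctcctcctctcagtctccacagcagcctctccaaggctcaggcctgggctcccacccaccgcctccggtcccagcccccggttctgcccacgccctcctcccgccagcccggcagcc
Junb: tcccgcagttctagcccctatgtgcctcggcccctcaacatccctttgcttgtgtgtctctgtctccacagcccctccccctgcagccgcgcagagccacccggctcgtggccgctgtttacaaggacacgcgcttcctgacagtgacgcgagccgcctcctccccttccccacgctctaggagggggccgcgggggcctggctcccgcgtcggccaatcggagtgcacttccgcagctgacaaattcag
Jun: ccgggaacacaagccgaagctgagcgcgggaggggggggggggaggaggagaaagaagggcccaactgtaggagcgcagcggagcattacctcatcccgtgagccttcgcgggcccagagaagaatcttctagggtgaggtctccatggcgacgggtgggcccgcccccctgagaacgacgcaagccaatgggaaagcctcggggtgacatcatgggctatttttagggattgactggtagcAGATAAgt
The Nab1 stretch is at chr1:52500449-52500698, the Nab2 stretch at chr10:127666704-127666953, the Junb stretch at chr8:84978749-84978998 and the Jun stretch at chr4:95052223-95052472, all on the minus strand. In Nab1 the capitals mark 3 matches to the EGR motif GCGNGGGCG, at bases -141 to -133, -109 to -101 and -38 to -30 from the start site. In Jun they mark the GATA motif AGATAA, at bases -8 to -3. The Nab2 and Junb stretches hold no capitals, because none of the 5 motifs searched has these letters in that window.

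The search covered windows of 300 bases, from 250 before to 50 after the start site, on both strands, and no bases further upstream. Of the members, 8 had at least 1 window (12 windows in all). Egr1 and Egr3 had none, so their promoters were not searched. The EGR motif was found in 2 of the 8, Nab1 and Fosl2, against 6.27% of all 27025 genes. The CArG box, to which SRF binds in many immediate early promoters, was found only in Egr2 of the 8, against 1.81% of all genes. The GATA motif, AGATAA or TGATAA, was found only in Jun, against 21.0% of all genes. The AP-1 motif TGANTCA and the cyclic AMP response element TGACGTCA had 0 matches in the 8 members, against 8.97% and 2.03% of all genes. The Nab1 and Nab2 windows were 81.7% and 74.0% G and C, against a median of 52.7% over all windows. No match overlapped another motif's match, and a match describes the letters, not binding.

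Between 48.9% and 74.0% of spots were well above background on the Mi2β siRNA arrays and between 53.4% and 56.8% on the control arrays, and no spot was saturated. The targeted gene Chd4 fell by 1.31 on the log2 scale (SE 0.10, limma adjusted p = 0.00161, range 1.93e-05 to 0.027 over 20 alternatives). Its levels were 4.62, 4.60 and 4.54 on the Mi2β siRNA arrays, against 5.93, 6.00 and 5.75 on the control arrays. These and all further levels are log2 signals relative to the array's 75th percentile, so that 0 is that percentile. All 9 erythroid markers were detected on all 6 arrays, including the haemoglobin genes. All 6 arrays lay on 1 slide, with 2 arrays of each group in row 1 and 1 of each in row 2.

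Egr1, the founding member of its family and a mediator of growth factor signals, was low on every Mi2β siRNA array. Its processed signal was 423, 346 and 399 on the Mi2β siRNA arrays 1 to 3, against 2494, 2534 and 2933 on the control arrays 1 to 3. The highest Mi2β siRNA array lay far below the lowest control array, and the arrays within a group were close to each other. Egr1 was at -0.09 ± 0.08 in Mi2β siRNA cells and at 2.82 ± 0.07 in control cells (SD, n = 3 each), a log2 change of -2.92 (SE 0.10). That is 13.3% of the control level. Of the 22133 genes fitted, Egr1 itself was the only one with a log2 change this low. Within slide row 1 the difference was -2.91 and in row 2 it was -2.92. The single Egr1 probe lies on chromosome 18.

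The other Egr factors were close to background. Egr2, which Nab proteins also restrain, was well above background on 0 of 6 arrays, with signals of 6.05, 13.2 and 5.18 on the Mi2β siRNA arrays, against 3.36, 3.95 and 3.65 on the control arrays. Although the Mi2β siRNA values were the higher ones, none counted as a measured level. Egr3, a factor best known from T cells and muscle spindles, was well above background on 1 of 3 Mi2β siRNA arrays and 1 of 3 control arrays. Its signals were 8.31, 49.8 and 15.0 on the Mi2β siRNA arrays, against 17.9, 11.6 and 3.50 on the control arrays, and the groups overlapped. Egr1 was thus the one Egr family member of the 3 for which both groups had a measured level.

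Nab2 was also low on every Mi2β siRNA array. Its gene-level probe (chr10:127098009-127098068, mm9, minus strand) had signals of 262, 238 and 290 on the Mi2β siRNA arrays, against 957, 710 and 784 on the control arrays. The groups did not overlap, and the lowest control array lay well above the highest Mi2β siRNA array. Nab2 was at -0.66 ± 0.15 in Mi2β siRNA cells and at 1.12 ± 0.22 in control cells (SD, n = 3 each), a log2 change of -1.77 (SE 0.15), or 29.3% of the control level. The difference was -1.92 within slide row 1 and -1.48 in row 2. The RefSeq models of Nab2 and its neighbour Stat6 overlap by 70 bases. Stat6, a cytokine-activated transcription factor, had a log2 change of -0.56 that did not pass the test (limma adjusted p = 0.0799).

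A second Nab2 probe, 3344 bases away towards the gene's start, gave no usable level. Its sequence is shown because it reads another stretch of the same gene, and the Junb probe is shown beside it as that of a member with a measured level.
Nab2 second probe: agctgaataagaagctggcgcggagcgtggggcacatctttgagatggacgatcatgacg
Junb probe: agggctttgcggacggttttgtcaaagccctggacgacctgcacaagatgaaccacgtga
The second Nab2 probe lies at chr10:127101413-127101472 and the Junb probe at chr8:87501881-87501940, both on the minus strand of mm9. The second Nab2 probe had signals of 3.36, 23.2 and 8.50 on the Mi2β siRNA arrays, against 10.5, 7.39 and 4.99 on the control arrays. It was well above background only on Mi2β siRNA array 2, so the Nab2 difference rests on the other probe.

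Nab1, the paralogue of Nab2 with the same docking function, differed much less. Its probe (chr1:52515132-52515191, mm9, minus strand) had signals of 405, 378 and 315 on the Mi2β siRNA arrays, against 446, 414 and 510 on the control arrays. The groups did not overlap, but the gap between them was small beside the gap of Nab2. Nab1 was at -0.18 ± 0.16 in Mi2β siRNA cells and at 0.28 ± 0.09 in control cells (SD, n = 3 each), a log2 change of -0.47 (SE 0.12). The difference was -0.33 within slide row 1 and -0.74 in row 2. The difference between the Nab1 and Nab2 changes was not tested.

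**Figure D1:**
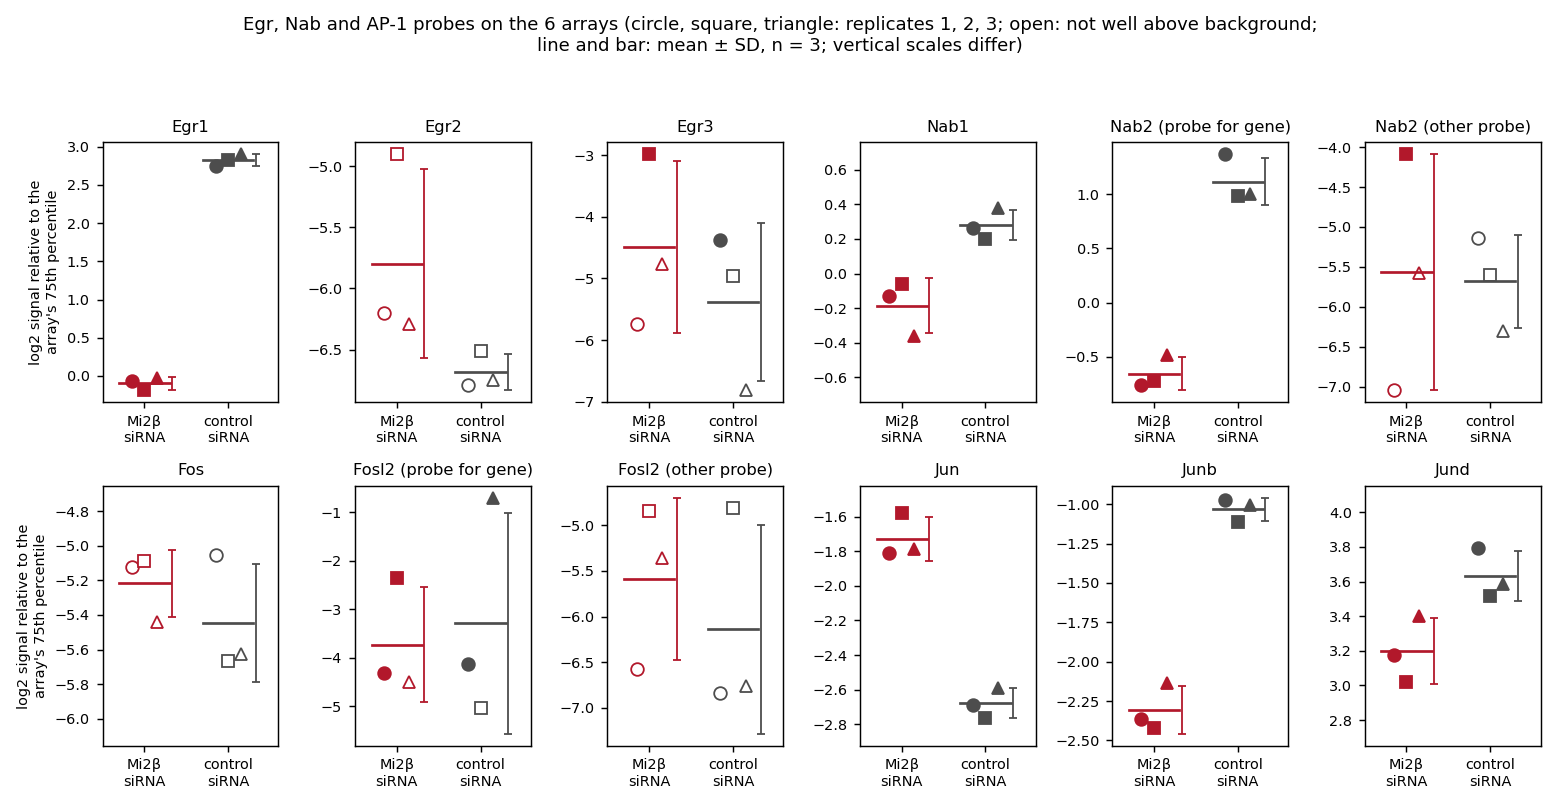
Each panel plots 1 of the 12 probes on its own vertical scale, as log2 signal relative to the array's 75th percentile, with Mi2β siRNA arrays on the left and control arrays on the right, lines and bars for mean ± SD (n = 3) and open symbols for arrays on which the probe was not well above background. Egr1, Nab2 and Junb lay lower and Jun higher on all 3 Mi2β siRNA arrays, while Egr2, Fos and the second Fosl2 probe were open on all 6.

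Among the AP-1 subunits, Junb and Jun differed in opposite directions. Junb, which can oppose Jun at shared sites and is a known brake on myeloid growth, had signals of 86.2, 73.5 and 92.1 on the Mi2β siRNA arrays, against 188, 166 and 196 on the control arrays. The groups did not overlap. Junb was at -2.31 ± 0.15 in Mi2β siRNA cells and at -1.03 ± 0.07 in control cells (SD, n = 3 each), a log2 change of -1.28 (SE 0.11), or 41.3% of the control level. The difference was -1.35 within slide row 1 and -1.13 in row 2.

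Jun, the activating subunit for which the family is named, was the one member of the 7 fitted with a higher level after Mi2β siRNA. Its probe (chr4:94716928-94716987, mm9, minus strand) had signals of 126, 132 and 117 on the Mi2β siRNA arrays, against 57.6, 53.0 and 65.4 on the control arrays. Every Mi2β siRNA array lay above every control array. Jun was at -1.73 ± 0.13 in Mi2β siRNA cells and at -2.68 ± 0.09 in control cells (SD, n = 3 each), a log2 change of 0.95 (SE 0.11), or a 1.93-fold higher level. The difference was 1.03 within slide row 1 and 0.80 in row 2. With normexp background correction, whose added offset compresses dim signals, the log2 change of Jun was 0.57.

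Jund, a subunit present in resting as well as stimulated cells, had signals of 4005, 3199 and 4282 on the Mi2β siRNA arrays, against 5150, 4108 and 4720 on the control arrays. On this unscaled signal the groups overlapped, since Mi2β siRNA array 3 lay above control array 2. After scaling they did not overlap, with 3.20 ± 0.19 in Mi2β siRNA cells and 3.63 ± 0.15 in control cells (SD, n = 3 each). Its log2 change was -0.43 (SE 0.14), and the difference was -0.56 within slide row 1 and -0.18 in row 2. The Jund probe lies at chr8:73224436-73224495 (mm9, plus strand).

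The Fos subunits had little or no measurable signal. Fos, the classic partner of Jun, has 10 spots of 1 probe on each array (chr12:86817900-86817959, mm9, plus strand). The geometric mean over spots was 12.7, 11.6 and 9.32 on the Mi2β siRNA arrays, against 11.2, 7.08 and 7.97 on the control arrays, and the groups overlapped. Of the spots free of an outlier mark, 4 of 10, 4 of 10 and 0 of 8 were well above background on the Mi2β siRNA arrays, against 4 of 10, 0 of 7 and 1 of 9 on the control arrays. On no array did that share reach 0.5, the share required to call the probe detected, so no Fos level is given.

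**Figure D2:**
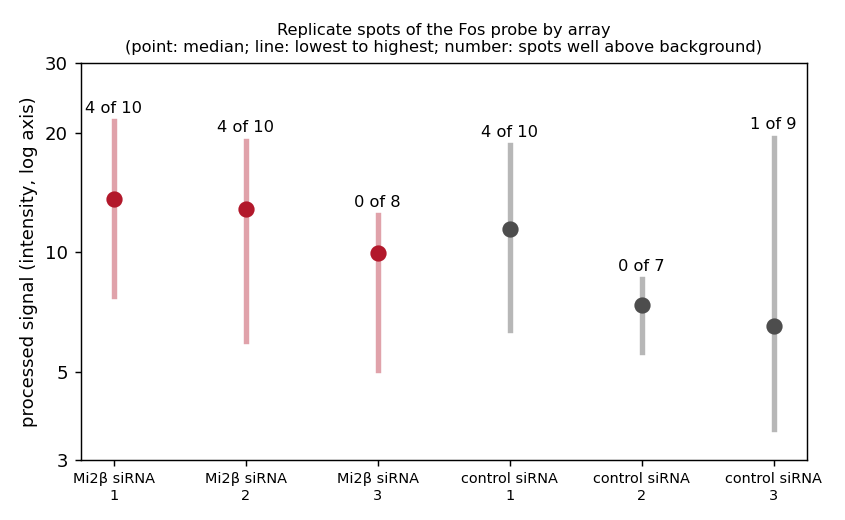
The processed signal of the Fos probe's replicate spots is plotted on a log axis for each array, with the median as a point, the range as a line and the number of spots well above background above it. The medians were 13.6, 12.9 and 9.98 on the Mi2β siRNA arrays and 11.4, 7.35 and 6.51 on the control arrays, within the range of spots on a single array.

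Fosl2, a Fos relative that lacks the strong activation domain of Fos, was decided by 1 array. Its gene-level probe (chr5:32455088-32455147, mm9, plus strand) had signals of 22.2, 77.3 and 17.9 on the Mi2β siRNA arrays, against 21.1, 11.1 and 241 on the control arrays. Control array 3 stood far above the other 5 arrays, and the probe was well above background on 2 arrays of each group. The log2 change was -0.44 (SE 1.22) with all arrays and 0.85 without control replicate 3. It was 1.24 within slide row 1 and -3.80 in row 2. The second Fosl2 probe, 4928 bases further along, had signals of 4.66, 13.8 and 9.88 on the Mi2β siRNA arrays and of 3.23, 12.8 and 3.62 on the control arrays, none well above background. It did not show the high value on control array 3.

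In the fit over all genes, 3 of the 7 members fitted were called lower (Egr1, Nab2 and Junb) and 1 higher (Jun), and the remaining 3 (Nab1, Fosl2 and Jund) were not called. A share of 4.56% of all genes was called lower and 4.99% higher, by limma at an adjusted p under 0.05. The groups did not overlap in 5 members that were lower and 1 that was higher, against 18.4% and 12.7% of all genes. Since the members were chosen from this contrast, nothing is read from these counts. The median log2 change of the 7 was -0.47, against -0.03 over all genes, and 3 of the 10 members are not in it.

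**Figure D3:**
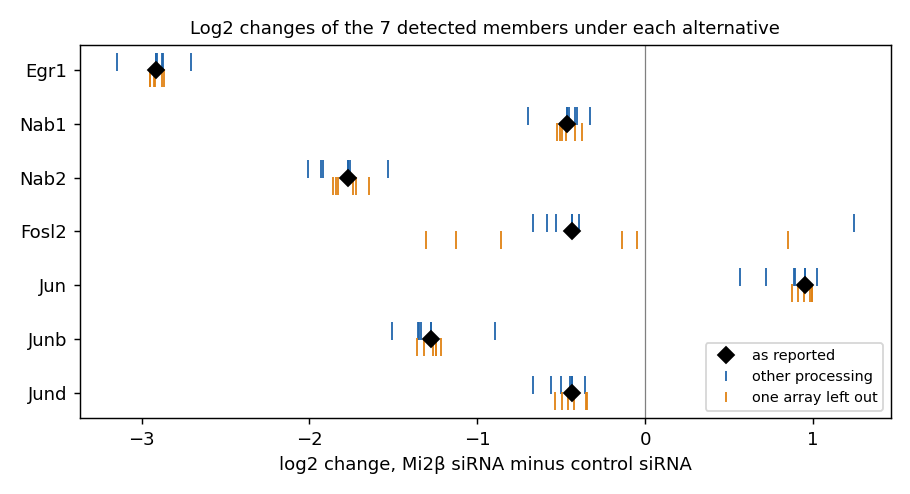
Log2 changes (Mi2β siRNA minus control siRNA) are plotted for the 7 detected members, with a diamond for the value as reported, blue ticks for other processing and orange ticks for each array left out. Egr1 ranged from -3.15 to -2.70, Nab2 from -2.01 to -1.53, Junb from -1.51 to -0.90 and Jun from 0.57 to 1.03, while Fosl2 ranged from -1.31 to 1.24, on both sides of 0.

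Of the 9 erythroid markers, 2 were called higher and 0 lower, namely Alas2, the first enzyme of haem synthesis, with a log2 change of 1.06 (limma adjusted p = 0.00467) and the adult beta-globin gene on the array as Hbb-b1 with 0.81 (adjusted p = 0.00933). The summed erythroid level, in units of the array's 75th percentile, was 4170 to 4507 on the Mi2β siRNA arrays and 3642 to 4173 on the control arrays. Its part in the member differences was not tested. Markers of other cell types were measured on the same arrays. Of 5 megakaryocyte markers, 3 were called lower and 0 higher, namely Gp9 with a log2 change of -2.18, Pf4 with -1.62 and Gp1ba with -0.63. Their summed level was 15.8 to 20.2 on the Mi2β siRNA arrays and 40.8 to 46.4 on the control arrays, so it moved the same way as Egr1, Nab2 and Junb. All 5 were detected on all 6 arrays. Its part in the Egr1, Nab2 and Junb differences was not tested. In bulk RNA, fewer cells of a type and less RNA per cell cannot be told apart. Of 5 macrophage markers 0 were called, and their summed level was 19.0 to 20.2 on the Mi2β siRNA arrays and 15.5 to 20.1 on the control arrays. The lymphoid sum was 8.30 to 9.62 on the Mi2β siRNA arrays and 9.03 to 10.6 on the control arrays, and none of these 5 genes was called. The mast cell sum was 0.646 to 0.755 on the Mi2β siRNA arrays and 0.516 to 0.619 on the control arrays, and the fibroblast sum was 0.188 to 0.350 on the Mi2β siRNA arrays and 0.211 to 0.254 on the control arrays. The mast cell markers Mcpt8 and Fcer1a and the fibroblast markers Col1a1 and Pdgfra were well above background on no array.

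Genes with a gene symbol were ranked by how like their profile over the 6 arrays was to that of a member. The measure was the root mean square difference of log2 values, each centred on its own mean. Nearest to Egr1 were the prostacyclin receptor gene Ptgir (0.197), the UDP-glucose dehydrogenase gene Ugdh (0.278), Zcwpw1 (0.298), the adhesion receptor gene Adgrg1 (0.311) and Afmid (0.313). Each of these 5 had a log2 change between -2.62 and -2.42. Nearest to Nab2 were the survival gene Bcl2l1 (0.114), Scpep1 (0.146) and the platelet factor gene Pf4 (0.151). Nearest to Jun were Prcd (0.0469), Iqcb1 (0.0667) and Sting1 (0.0669). The 6 points of each profile are the same 6 arrays, in the same 2 groups, so genes with a similar group difference rank near.

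The rest of the pathway was examined through 6 lists of genes that are not members, by the same fit, with each call at a limma p adjusted over all 22133 genes. Of 130 listed genes, 102 passed the detection filter. Of these, 7 rose, 7 fell and 88 did not pass the test. The share called was 13.7%, against 9.56% of all genes, and the median log2 change was -0.03, as over all genes. Counts at an unadjusted p under 0.05 are also given for each list below. The share of all genes at that threshold is not given here, so nothing is read from those counts. Of these 14 calls, 11 were lost with array median scaling, which left those of Tnf, Icam1 and Spry1. Within slide row 1 alone, with 4 arrays, 11 were lost, which left those of Tnf, Spry1 and Rps6ka1. With slide row as a blocking factor, the calls of Klf4 (limma adjusted p = 0.0686), Dusp16 (0.0663) and Tgfb1 (0.0703) were lost. Among the uncalled genes named below, it gained calls, all higher, for Batf3 (limma adjusted p = 0.0271), Rgs1 (0.0296) and Ier3 (0.0443).

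**Figure D4:**
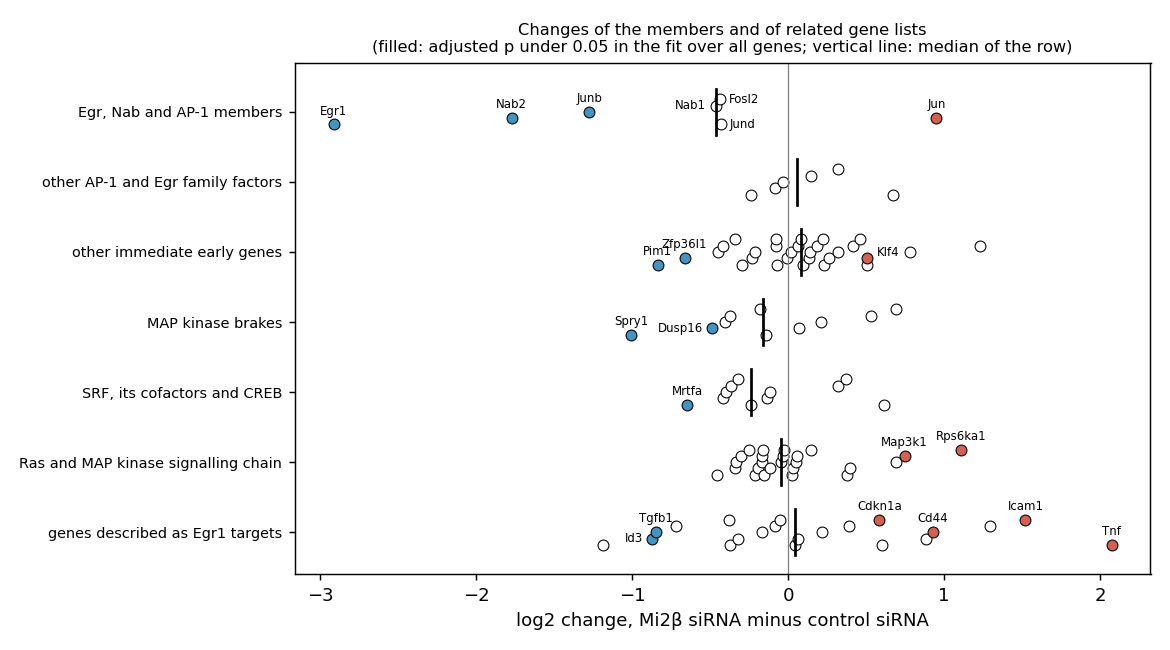
The log2 change (Mi2β siRNA minus control siRNA) of each detected gene is plotted by list, filled blue where lower and red where higher at an adjusted p under 0.05 in the fit over all genes, with a bar at the median of the row. Of the 102 genes outside the top row, which holds the 7 detected members, 7 are red and 7 are blue, and no list median lies beyond -0.24.

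In the Ras and MAP kinase signalling chain, which runs from the Kit receptor to the kinases that switch on immediate early genes, 2 of 25 genes rose and 0 fell. At an unadjusted p under 0.05, 5 were higher and 5 lower. Rps6ka1, a kinase downstream of ERK, rose by 1.11 (SE 0.13, limma adjusted p = 0.00547, range 0.000136 to 0.252 over the alternatives). It was at 5.99 to 6.28 on the 3 Mi2β siRNA arrays and at 4.85 to 5.11 on the 3 control arrays. Map3k1, a kinase that feeds the JNK branch acting on Jun, rose by 0.75 (SE 0.11, limma adjusted p = 0.0126, range 0.00108 to 0.644). Its call was lost without Mi2β siRNA replicate 1 (adjusted p = 0.0625) or control replicate 1 (0.0538). The exchange factor gene Sos1 (0.69) and the adaptor gene Grb2 (-0.46) did not pass, and the list's median was -0.05.

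Of the MAP kinase brakes, a list of dual-specificity phosphatases, Sprouty and Spred inhibitors and Ras GTPase-activating proteins such as Nf1, 10 of 17 were detected, of which 0 rose and 2 fell. At an unadjusted p under 0.05, 2 were higher and 4 lower. Spry1, an inhibitor of receptor tyrosine kinase signalling, fell by 1.01 (SE 0.14, limma adjusted p = 0.0089, range 0.00066 to 0.0639 over the alternatives). It was at -1.13 to -0.74 on the Mi2β siRNA arrays and at -0.04 to 0.11 on the control arrays. Dusp16, a phosphatase acting on JNK, fell by 0.49 (SE 0.11, limma adjusted p = 0.0472, range 0.00929 to 0.435). Its call was lost without any 1 of Mi2β siRNA replicates 1 and 2 and the 3 control replicates (adjusted p from 0.0983 to 0.188). With the mean over a gene's probes, the log2 change of Dusp16 was only -0.25 and did not pass (limma adjusted p = 0.25). Dusp7 (0.69) and Spred2 (0.53) did not pass, and the list's median was -0.16. Dusp7 was called higher under 5 of the 20 alternatives and Spred2 under 2.

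Among SRF, its cofactors and CREB, the factors through which the signal reaches immediate early promoters, all 11 were detected, 0 rose and 1 fell. At an unadjusted p under 0.05, 0 were higher and 5 lower, and the median of -0.24 was the lowest of the 6 lists. Mrtfa, an actin-regulated SRF cofactor listed on the array as Mkl1, fell by 0.65 (SE 0.11, limma adjusted p = 0.0218, range 0.00288 to 0.247). It was at 1.93 to 1.98 on the Mi2β siRNA arrays and at 2.43 to 2.76 on the control arrays. Its call was lost without any 1 of the 3 Mi2β siRNA replicates or control replicate 2 (adjusted p from 0.0585 to 0.106). The ternary complex factor gene Elk3 (0.62, SE 0.58) and Mrtfb (-0.42) did not pass.

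Of 12 other AP-1 and Egr family factors, such as Fosb, Fosl1, Atf2, Atf3 and Egr4, 6 were detected and 0 were called by limma in either direction, also at an unadjusted p under 0.05. Their log2 changes ran from -0.24 to 0.67, with a median of 0.06. The largest were those of Batf3 (0.67, SE 0.33) and Fosl1 (0.32, SE 0.22). Egr4 and Atf3 were among the 6 not detected.

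Of 36 other immediate early genes, 29 were detected, of which 1 rose, 2 fell and 26 did not pass. At an unadjusted p under 0.05, 6 were higher and 3 lower. Pim1, a survival kinase induced by cytokines, fell by 0.84 (SE 0.10, limma adjusted p = 0.00601, range 0.000304 to 0.0912). It was at 3.31 to 3.53 on the Mi2β siRNA arrays and at 4.21 to 4.30 on the control arrays. Zfp36l1, which binds AU-rich messages for decay, fell by 0.66 (SE 0.12, limma adjusted p = 0.0253, range 0.00335 to 0.23). The zinc-finger factor gene Klf4 rose by 0.51 (SE 0.11, limma adjusted p = 0.0401, range 0.00872 to 0.769). Leaving out 1 array ended the call of Zfp36l1 for all but Mi2β siRNA replicate 3 (adjusted p from 0.0557 to 0.0977), and that of Klf4 for all but control replicate 3 (0.0835 to 0.149). Rgs1 (1.23, SE 0.35) and Ier3 (0.78, SE 0.20) were higher on average without passing. Rgs1 was called higher under 4 of the 20 alternatives and Ier3 under 5. The list's median was 0.08.

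Of 29 genes described elsewhere as Egr1 targets, mostly in other cell types, 21 were detected, of which 4 rose, 2 fell and 15 did not pass. At an unadjusted p under 0.05, 5 were higher and 6 lower. The cytokine gene Tnf rose by 2.07 (SE 0.15, limma adjusted p = 0.00119, range 7.41e-05 to 0.0279). It was at -2.07 to -1.90 on the Mi2β siRNA arrays and at -4.35 to -3.91 on the control arrays. It was called under all 20 alternatives, with a log2 change from 0.82 to 2.17. The adhesion gene Icam1 rose by 1.52 (SE 0.20, limma adjusted p = 0.0085, range 0.00129 to 0.0664), with -2.14 to -1.58 on the Mi2β siRNA arrays and -3.69 to -3.17 on the control arrays. With normexp the log2 change of Icam1 was 0.69 and that of Tnf 0.82.

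The other calls in that list were smaller. The hyaluronan receptor gene Cd44 rose by 0.93 (SE 0.18, limma adjusted p = 0.0317), and Cdkn1a, an inhibitor of cell cycle kinases, by 0.59 (SE 0.10, adjusted p = 0.0218). Id3, an inhibitor of helix-loop-helix factors, fell by 0.87 (SE 0.17, limma adjusted p = 0.0309), and the cytokine gene Tgfb1 by 0.85 (SE 0.19, adjusted p = 0.0462). Over the alternatives the adjusted p ranged from 0.00303 to 0.463 for Cd44, 0.00282 to 0.726 for Cdkn1a, 0.0119 to 0.125 for Id3 and 0.00545 to 0.126 for Tgfb1. With the mean over a gene's probes, the log2 change of Cdkn1a was only 0.22 and did not pass (limma adjusted p = 0.222). Leaving out 1 array ended the call of Cd44 for the 3 Mi2β siRNA replicates and control replicate 2 (adjusted p from 0.0595 to 0.13), and that of Cdkn1a for all but Mi2β siRNA replicate 2 (0.058 to 0.0961). It ended that of Id3 for all but control replicate 3 (0.0666 to 0.111) and that of Tgfb1 for each of the 6 arrays (0.0557 to 0.124). The membrane protease gene Mmp14 (-1.19, SE 0.31) and the tissue factor gene F3 (1.30, SE 1.09) did not pass, and the list's median was 0.04. Mmp14 was called lower under 5 of its 20 alternatives, and F3 was called under 0 of its 19.

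The list medians lay between -0.24 and 0.08, against -0.03 for all genes. With array median scaling the median of all genes was -0.27. The medians of the AP-1 and Egr family, immediate early and Egr1 target lists were then below 0, at -0.18, -0.15 and -0.19, while their distances from the median of all genes stayed the same. The AP-1 and Egr family median also turned below 0 with normexp (-0.03) and with quantile normalization (-0.06), and with quantile normalization it lay below the median of all genes by a difference of -0.01.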

How the data were processed

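Total RNA (0.1 µg per sample) was labelled with Cy3 for Agilent arrays of 1 colour, per the labels' protocols. The deposited scanner files give linear spot intensities that Agilent Feature Extraction 10.7.3.1 had background-subtracted, per the file headers. Feature Extraction and limma are named in the submitters' processing notes. The deposited value table repeats these intensities, with 100% of values within 0.005 of the scanner's signal or within their printed precision. Columns had medians of 25.9, 36.93 and 17.83 for Mi2β siRNA and of 21.23, 16.95 and 20.92 for control siRNA, so it is linear and not centred, and a ratio of its values has no open direction.

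From these intensities, log2 values relative to the 75th percentile of each array were computed, without control spots or spots marked as outliers, and with spots of a probe averaged on the log2 scale. A probe counts as well above background on an array when a share of at least 0.5 of its spots does, and probes detected on at least 3 of 6 arrays were kept. The probe of highest mean stands for its gene. Gene names are those of the design, updated through RefSeq accessions (27509 of 29150 matched). Probe coordinates are on mm9 per the file headers, and which exon a probe lies in is not given here. Promoters are from RefSeq on GRCm38.p6.

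Mi2β siRNA was compared with control siRNA with limma 3.58.1 (R 4.3.3), by lmFit and a two-sided eBayes test without covariates. The p-values of all 22133 genes were adjusted together by the Benjamini-Hochberg method, and calls were made at 0.05. Simulated data with known changes were used to test the fit. The members and lists were chosen with earlier results of these data known. Named genes are Chd4, all members, up to 4 called and 2 uncalled genes with the largest changes in each list, every call of a list with 5 or fewer in a direction, and the nearest profiles. The alternatives changed the background correction, scaling, filter, probe choice, variance model, outlier flags, source table, slide row, pairing and each array. Separate cultures are not stated in the labels, and p-values then cover only the spread among these samples, which may be technical. The number of arrays limits the precision.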

Additional observations from a re-analysis of the deposited data

How the results depend on the processing

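Of the 7 members fitted, 3 were called lower, with 3 when any 1 array was left out. The count was 4 with normexp, with quantile normalization and with the filter of all 6 arrays, 5 with an intensity trend and 5 with array weights. The added calls were those of Nab1 under each of these 5 settings, and of Jund with the trend and the weights. The 1 member called higher, Jun, was 1 when any 1 array was left out and 0 with array median scaling, with slide row 1 alone and with the replicate block. Since the members were chosen from this contrast, nothing is read from the stability of their calls. The count of pathway list genes called higher, 7, was 12 with normexp, 2 with array median scaling, 3 with no detection filter, 13 with the filter of all 6 arrays, 13 with an intensity trend, 18 with array weights, 2 in slide row 1 alone, 2 with the replicate block and 3 to 6 with 1 array left out. The count called lower, 7, was 12 with normexp, 2 with array median scaling, 2 with no detection filter, 13 with an intensity trend, 18 with array weights, 1 in slide row 1 alone, 0 with the replicate block and 2 to 5 with 1 array left out. Over all genes, 2115 calls became 3306 with an intensity trend, 4729 with array weights, 831 with array median scaling, 993 with no detection filter, 720 in slide row 1 alone, 685 with the replicate block and 813 to 1579 with 1 array left out. The cause of these changes in the counts was not tested. No called change among members or named list genes reversed its sign under any of the 20 alternatives. Same-numbered samples correlated at 0.206, -0.319 and 0.132 in their deviations from the group means. Differently numbered samples correlated at -0.408 to 0.323. Deviations within a group of 3 sum to 0, so these values cannot settle whether the numbers pair the samples. Egr2, Egr3, Fos and the second probes of Nab2 and Fosl2 are limited by signal over background.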
